A study of Homo sapiens with 8 samples.

Results

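KSR1, its paralog KSR2, the kinase BRAF and 6 genes that are transcribed in response to ERK signaling or restrain it (DUSP4, DUSP6, SPRY2, SPRY4, SPRED1 and ETV5) were followed in ribosome profiling data of rhabdoid tumor cells. The group was taken by gene name, and it was put together because KSR1 footprints rose when SMARCB1 was expressed. The rise of KSR1 is therefore given as a description with no test, and so is every comparison that shares its libraries for KSR1. All 9 genes were among the 20719 gene IDs listed, and 7 of them passed a filter on low counts that left 11097 genes for testing. DUSP4 and KSR2 did not pass. SPRY2 passed through the libraries of 1 line only, which bears on every comparison of it between lines.

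G401 is a cell line from a rhabdoid tumor of the kidney that lacks SMARCB1, a core subunit of the SWI/SNF chromatin remodeling complexes. G401 cells carried either a doxycycline-inducible SMARCB1 or a doxycycline-inducible GFP, and both lines received 0.1 µg/ml doxycycline (Dox) or the solvent DMSO for 12 h. The 4 groups are named SMARCB1 Dox, SMARCB1 DMSO, GFP Dox and GFP DMSO, each with 2 libraries of ribosome footprints, the mRNA fragments that translating ribosomes protect. The question was which mRNAs are occupied differently once SMARCB1 is back. All groups share the G401 background and its loss of the endogenous protein, several plates were pooled for each condition, and each inducible line is represented by 1 line, so an effect of the transgene's presence and a difference in how the lines were derived cannot be told apart.

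The proteins act along one signaling route. Active RAS recruits RAF kinases such as ARAF and BRAF, which phosphorylate the MEK kinases (MAP2K1 and MAP2K2), which in turn phosphorylate ERK kinases such as MAPK3, and KSR proteins hold RAF, MEK and ERK together on a scaffold. ERK then switches on genes whose products restrain it: dual-specificity phosphatases such as DUSP4 and DUSP6 remove phosphate from ERK, while Sprouty and Spred proteins act further up, near RAS and RAF. Transcripts of these feedback genes and of the ETS factor ETV5 are widely read as a sign of ERK output.

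KSR1 and KSR2 are RAF relatives that differ from the RAF kinases at the codon of the catalytic lysine in kinase subdomain II, the residue that contacts ATP. The coding sequence around that codon, read 5′ to 3′ from GENCODE transcripts on hg38, is shown to place the scaffolds beside the kinases, with the codon in capitals.
BRAF: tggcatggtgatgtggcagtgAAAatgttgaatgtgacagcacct
ARAF: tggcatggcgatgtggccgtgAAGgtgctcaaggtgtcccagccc
KSR1: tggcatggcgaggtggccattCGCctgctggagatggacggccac
KSR2: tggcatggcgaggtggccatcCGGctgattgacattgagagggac
The capitals mark a lysine codon in the RAF kinases (codon 483 of BRAF and 336 of ARAF, counted from the start codon) and an arginine codon in the scaffolds (codon 617 of KSR1 and 692 of KSR2). Over these 45 bases KSR1 matched BRAF at 25 positions (55.6%), KSR2 at 21 (46.7%) and ARAF at 32 (71.1%). The KSR1 stretch lies on chromosome 17, 27605647 to 27605691, plus strand, inside 1 coding exon, and the KSR2 stretch on chromosome 12, 117524974 to 117525018, minus strand, also inside 1 exon. The ARAF stretch lies on chromosome X, 47567341 to 47567385, plus strand, in 1 exon. The BRAF stretch (chromosome 7, 140778038 to 140781582, minus strand) spans an intron.

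Libraries held 5924443 to 14000039 counts on genes. SMARCB1, the gene targeted by the design, had 0 counts in 6 libraries, while the pair labelled SMARCB1 Dox held 2553 and 1750. The rhabdoid markers VIM, KRT8 and KRT18 were between 745 and 3382 CPM in all 8 libraries, where CPM is the count per 1000000 counts of the library's scaled total. Of the 7 markers of other cell types, PTPRC, CD3E and ALB were at 0 in every library. The others had counts: PECAM1 reached 0.234 CPM, CDH1 0.585, EPCAM 1.82 and CD68 37.8. GFP Dox replicate 1 stood apart: 56.4% of its alignments were to several places, against 25.6% to 39.7% in the 7 others, and its correlation with its replicate, 0.950, was the lowest within a line. Between replicates, 14.3% to 39.6% of tested genes differed by more than 1.5 times, least in GFP DMSO and most in GFP Dox.

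KSR1 (chromosome 17, 27456448 to 27626438, plus strand) stood higher in both SMARCB1 Dox libraries than in any other. Its counts were 362 and 195 in SMARCB1 Dox, 45 and 98 in SMARCB1 DMSO, 53 and 61 in GFP Dox, and 117 and 105 in GFP DMSO. On the CPM scale these were 30.3 and 30.9 in SMARCB1 Dox, 7.50 and 7.63 in SMARCB1 DMSO, 8.76 and 9.02 in GFP Dox, and 9.62 and 7.29 in GFP DMSO. The SMARCB1 Dox pair was thus at one level and the 6 others at another: the lowest SMARCB1 Dox value was 3.15 times the highest of the 6 others, which spanned 1.32-fold among themselves.

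The fitted log2 fold change of KSR1 in SMARCB1 Dox over SMARCB1 DMSO was 2.01 (standard error 0.32), a 4.03-fold difference, with group means of 30.6 ± 0.44 and 7.57 ± 0.09 CPM (SD, n = 2). Leaving out each library of the line in turn gave 1.998 to 2.026. The group was chosen on this contrast, so nothing is read from the value. These are footprint counts, so more mRNA, more ribosomes per mRNA and more cells that use the gene cannot be told apart here. KSR1 shares 26 coding bases with another annotated gene.

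Dox in the GFP line, which the choice of genes did not use, gave KSR1 a log2 fold change of 0.07 (standard error 0.32, 95% interval -0.60 to 0.75, adjusted p = 1 in edgeR's quasi-likelihood test), and the 2 groups overlapped. The value was 0.09 without GFP Dox replicate 1 and -0.12 without GFP DMSO replicate 2. The difference between the Dox effects of the lines was 1.94 on the log2 scale (standard error 0.45), which contains the contrast that chose KSR1 and so carries no test. Before Dox the lines were close for KSR1, with a log2 difference of -0.16 (standard error 0.32, 95% interval -0.83 to 0.52) in SMARCB1 DMSO against GFP DMSO.

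**Figure D1:**
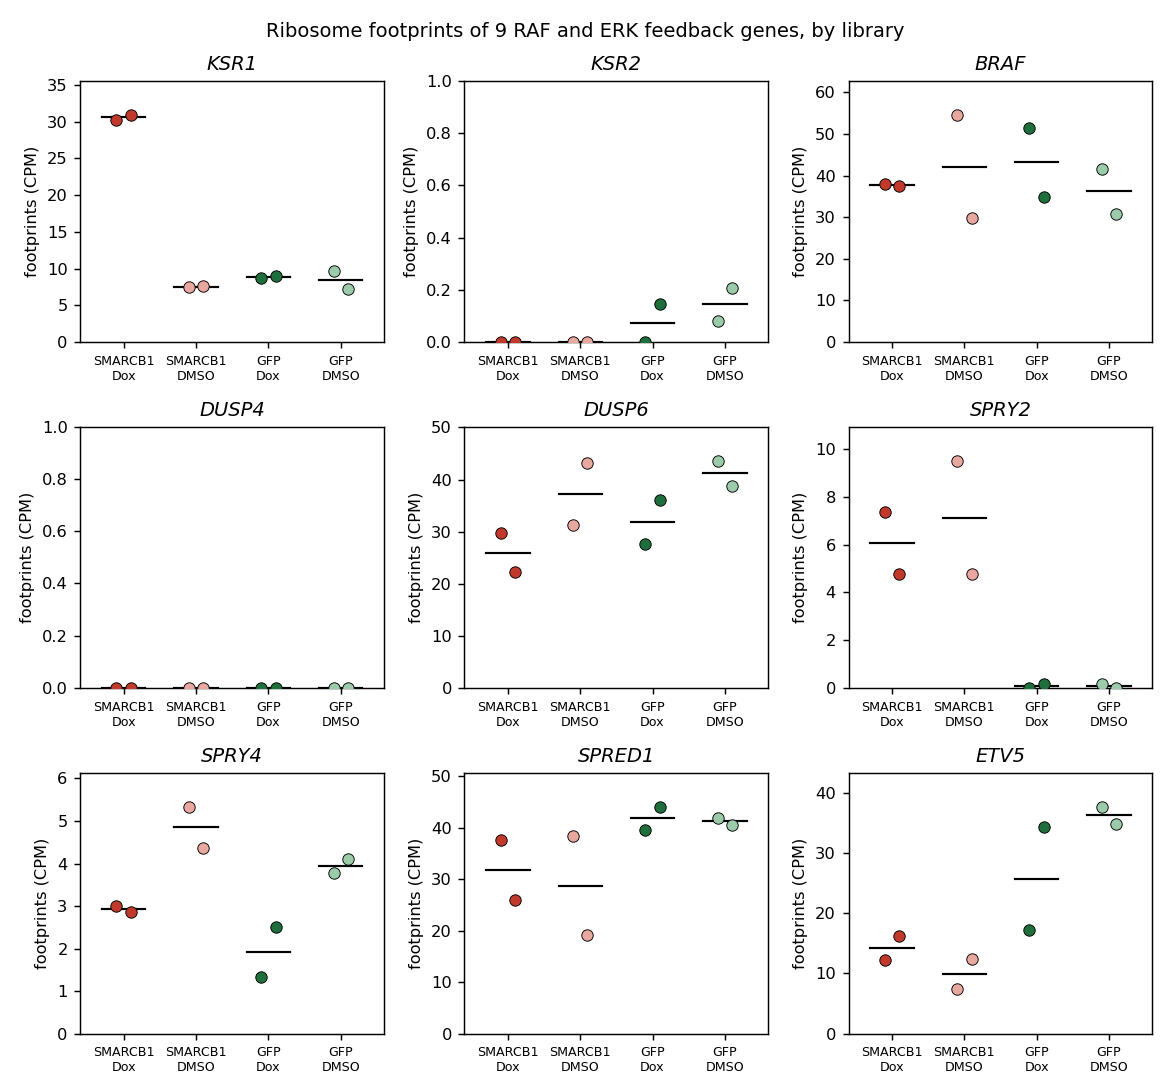
Footprints of the 9 genes in CPM (vertical axes, each starting at 0) in the 4 groups; each point is 1 library and each bar the mean of 2. KSR1 is at 30.3 and 30.9 in SMARCB1 Dox and at 7.29 to 9.62 elsewhere, SPRY2 is at 0.16 or less in the GFP line, and DUSP4 is at 0 throughout.

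KSR2, the second scaffold, had almost no footprints. It had 0 counts in all 4 libraries of the SMARCB1 line, 0 and 1 in GFP Dox, and 1 and 3 in GFP DMSO, 5 counts in all. A count of 0 in the SMARCB1 line allows up to 3 counts over its 4 libraries, 0.0808 CPM, and this limit covers counting error only. Whether the lines differ for KSR2 was not detectable at this depth, since the ratio of SMARCB1 DMSO to GFP DMSO lay between 0 and 2.14 (95% exact binomial interval of the pooled counts).

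BRAF (chromosome 7, 140719327 to 140924929, minus strand) showed no change that exceeded its spread. Its CPM values were 37.9 and 37.4 in SMARCB1 Dox, 54.5 and 29.8 in SMARCB1 DMSO, 51.4 and 34.9 in GFP Dox, and 41.5 and 30.8 in GFP DMSO. All groups overlapped, and the 2 SMARCB1 DMSO libraries alone differed 1.83-fold. The log2 fold change was -0.15 (standard error 0.32) for Dox in the SMARCB1 line and turned to 0.34 once SMARCB1 DMSO replicate 1 was left out. For GFP cells it was 0.25 (standard error 0.31, 95% interval -0.42 to 0.93, adjusted p = 1 in edgeR's quasi-likelihood test), and it turned to -0.05 without GFP Dox replicate 1.

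On their means over the 8 libraries, other kinases of the cascade were more heavily occupied than KSR1 for their length. Per kb of coding sequence, the mean level over 8 libraries was 109 CPM for MAP2K2, 57.1 for MAP2K1, 16.1 for ARAF, 14.9 for BRAF and 13.4 for MAPK3. KSR1 averaged 4.39 CPM per kb and ranged from 2.31 to 9.77, which overlapped the range of MAPK3 (8.41 to 25.4). The levels of ARAF, BRAF and MAPK3 overlapped across libraries (8.41 to 25.4 CPM per kb over these genes), so their order is not resolved. Over the other genes of the group the mean per kb was 29.2 CPM for DUSP6, 26.9 for SPRED1, 13.1 for ETV5, 3.53 for SPRY4 and 3.53 for SPRY2. The order of these means depended on the groups, since SPRY2 averaged 6.41 and 7.54 CPM per kb in SMARCB1 Dox and SMARCB1 DMSO against 0.0782 and 0.0870 in GFP Dox and GFP DMSO. DUSP6 and SPRED1 overlapped across libraries. With Dox in the SMARCB1 line ARAF, MAP2K1, MAP2K2 and MAPK3 had fitted log2 changes of 0.12 to 0.40, all above 0 with each of the 3 scalings tried, against a median of -0.02 over all genes tested. None of these 4 was called in edgeR's quasi-likelihood test and 0 had an unadjusted p under 0.05 there or in DESeq2, and 3 of the 4 were above 0 without SMARCB1 Dox replicate 2 or without SMARCB1 DMSO replicate 2. In GFP Dox against GFP DMSO the same 4 had fitted log2 changes of 0.07 to 0.61, also all above 0, and 3 of 4 above 0 with library size alone. Without GFP Dox replicate 1, the library that stood apart, 2 of 4 were above 0 (lowest -0.11). It was 3 of 4 without GFP Dox replicate 2 (lowest -0.37) or without GFP DMSO replicate 1 (lowest -0.11).

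**Figure D2:**
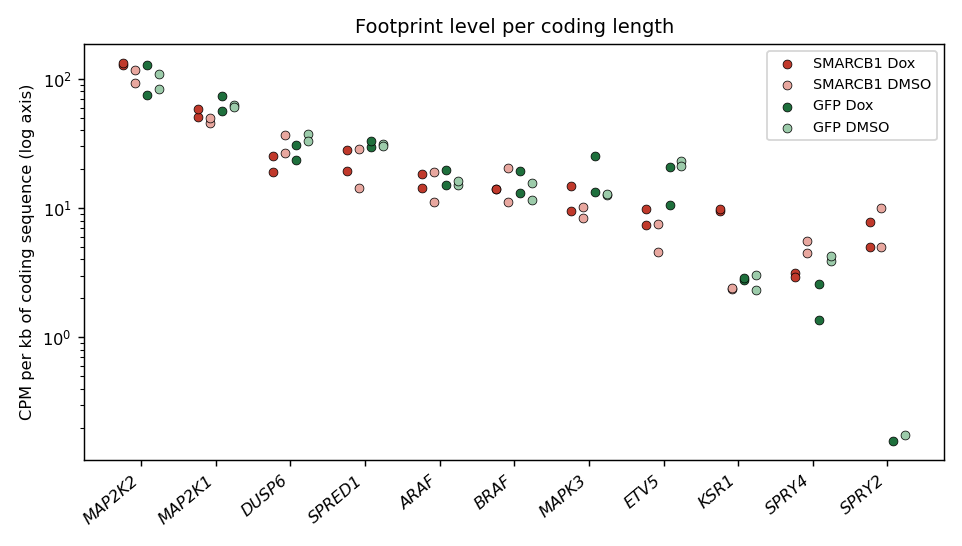
Footprints per kb of coding sequence (vertical axis, CPM per kb, log scale) for 4 cascade kinases and the 7 tested genes of the group; each point is 1 library, colored by group, and libraries at 0 are not drawn. MAP2K2 averages 109 CPM per kb, KSR1 4.39, and SPRY2 has points of the GFP line far below those of the SMARCB1 line.

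The ERK feedback and output genes, like nearly all tested genes, showed no change with SMARCB1 that passed the test. In SMARCB1 Dox against SMARCB1 DMSO 0 of the 6 tested genes other than KSR1 were called by edgeR's quasi-likelihood test at an adjusted p of 0.05, where 0.018% of all tested genes were. DESeq2's Wald test called 0 of these 6 as well, and of all 11097 tested genes it called 26 higher and 10 lower. In either tool 0 of the 6 had an unadjusted p under 0.05, where 552 (edgeR) and 553 (DESeq2) of all tested genes did. The 5 tested feedback genes had log2 changes from -0.71 to 0.47, with a median of -0.20. For 2 of them, DUSP6 and SPRY4, both Dox libraries lay below both DMSO libraries, an arrangement that 18.3% of all tested genes showed in that direction.

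DUSP6 (chromosome 12, 89347235 to 89352501, minus strand), is the cytoplasmic phosphatase of ERK. Its CPM values were 29.8 and 22.2 in SMARCB1 Dox, 31.3 and 43.2 in SMARCB1 DMSO, 27.6 and 36.1 in GFP Dox, and 43.6 and 38.8 in GFP DMSO. Dox libraries lay below DMSO libraries in both lines. The log2 change was -0.52 (standard error 0.28) in the SMARCB1 line. In the GFP line it was -0.37 (standard error 0.28, 95% interval -0.97 to 0.23, adjusted p = 1 in edgeR's quasi-likelihood test), and -0.19 without GFP Dox replicate 1. The difference between the lines was -0.15 (standard error 0.39).

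DUSP4, the nuclear counterpart of DUSP6, had 0 counts in all 8 libraries. The 3 counts that this allows over all libraries come to 0.0392 CPM, a limit for counting error only. Of 696 genes listed on its chromosome, 485 had a count.

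SPRY4 (chromosome 5, 142310427 to 142326455, minus strand), an inhibitor of the Sprouty family, also lay lower with Dox in both lines, at counts of 8 to 59 per library. Its CPM values were 3.01 and 2.85 in SMARCB1 Dox, 5.33 and 4.36 in SMARCB1 DMSO, 1.32 and 2.51 in GFP Dox, and 3.78 and 4.10 in GFP DMSO. The groups did not overlap in either line. The log2 change was -0.71 (standard error 0.54) in the SMARCB1 line. In the GFP line it was -1.02 (standard error 0.56, 95% interval -2.23 to 0.18, adjusted p = 1 in edgeR's quasi-likelihood test), which became -0.65 without GFP Dox replicate 1.

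In GFP Dox against GFP DMSO 0 of the 7 tested genes were called, as were 0% of all tested genes. DESeq2 called 0 as well, of the 7 and of all tested genes. In either tool 0 of the 7 had an unadjusted p under 0.05, where 240 (edgeR) and 251 (DESeq2) of all tested genes did. DUSP6, SPRY4 and ETV5 were the 3 genes whose Dox libraries lay below both DMSO libraries, an order that 13.2% of all tested genes showed. DUSP6 and SPRY4 had that order in both lines, as did 262 of the 11097 tested genes (2.36%).

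**Figure D3:**
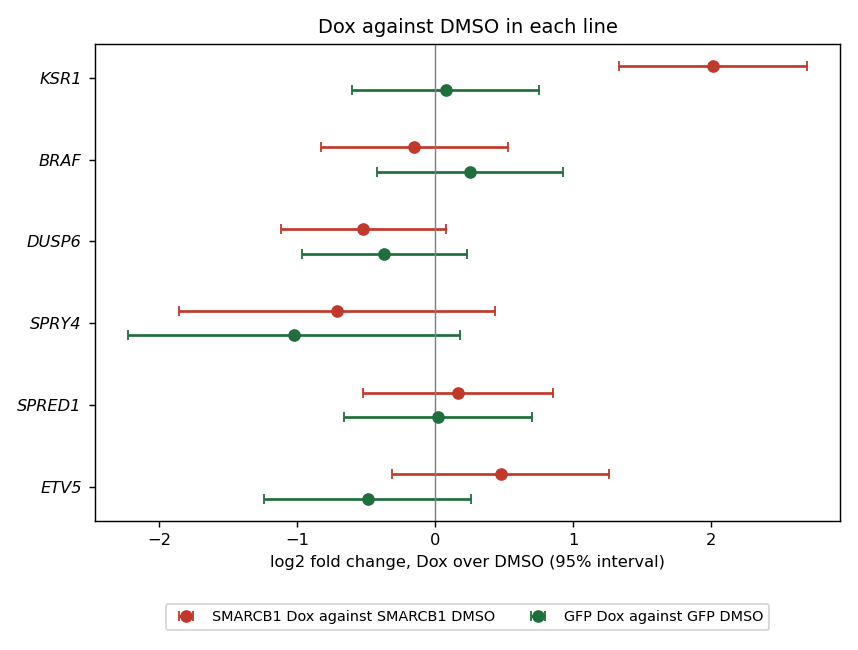
Fitted log2 fold change of Dox over DMSO (horizontal axis) with its 95% interval for 6 tested genes, SPRY2 left out because its GFP counts are 0 to 2; red is the SMARCB1 line and green the GFP line. KSR1 is at 2.01 (red) in the contrast that chose the group, so nothing is read from that interval. It is at 0.07 in the GFP line, where the intervals of all 6 genes include 0. In the SMARCB1 line the intervals of the other 5 genes include 0.

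SPRY2 (chromosome 13, 80335976 to 80341126, minus strand), a Sprouty inhibitor, differed between the lines far more than between Dox and DMSO. Its counts were 88 and 30 in SMARCB1 Dox, 57 and 61 in SMARCB1 DMSO, 0 and 1 in GFP Dox, and 2 and 0 in GFP DMSO, or 236 counts in one line and 3 in the other. In CPM it ran from 4.75 to 9.50 in the first line and from 0 to 0.16 in the second. Without Dox the pooled counts stood in a ratio of 83.2 between the lines (22.5 to 695, the 95% exact binomial interval). With Dox the ratio was 82.8 (14.6 to 3296). The first ratio was 38.1 without GFP DMSO replicate 2 and the second 43.7 without GFP Dox replicate 1. Without GFP DMSO replicate 1, or with Dox without GFP Dox replicate 2, the GFP line was left at 0 counts and no ratio is given. The intervals cover counting error only. SPRY2 passed the filter through the line where it is high and so had to differ, and its difference between lines is given with no test.

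Without Dox the line comparison called 5.29% of all tested genes (2.67% higher and 2.62% lower in the SMARCB1 line) in edgeR's quasi-likelihood test, and with Dox 6.55% (3.31% and 3.24%). Of the 5 tested members other than KSR1 and SPRY2, 1 was called without Dox, ETV5, and 0 with Dox. Under Dox in the SMARCB1 line the ratio of pooled SPRY2 counts was 1.03 (95% exact binomial interval 0.792 to 1.34, counting error only). It ranged from 0.680 without SMARCB1 DMSO replicate 2 to 1.36 without SMARCB1 DMSO replicate 1. The fitted log2 change of SPRY2, which takes in the spread between libraries, was -0.20 (standard error 0.62, 95% interval -1.53 to 1.13).

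ETV5 (chromosome 3, 186046314 to 186110318, minus strand), an ETS transcription factor, differed between the lines in the opposite direction. Its CPM values were 12.2 and 16.2 in SMARCB1 Dox, 7.50 and 12.5 in SMARCB1 DMSO, 17.2 and 34.3 in GFP Dox, and 37.7 and 34.8 in GFP DMSO. All 4 libraries of the SMARCB1 line lay below all 4 of the GFP line. Without Dox the log2 difference was -1.83 (standard error 0.37, adjusted p = 0.00625 in edgeR's quasi-likelihood test). It was -1.54 with an adjusted p of 0.0827 without SMARCB1 DMSO replicate 1, the library with the lowest value and 45 counts. The call held without any 1 of the other 3 libraries.

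With Dox, ETV5 had a log2 difference between the lines of -0.87 (standard error 0.36, adjusted p = 0.202 in edgeR's quasi-likelihood test). With 1 library left out it ran from -1.28 (without GFP Dox replicate 1, the library that stood apart) to -0.29 (without GFP Dox replicate 2). Dox moved it by 0.47 (standard error 0.37) where SMARCB1 was induced and by -0.49 (standard error 0.35, 95% interval -1.24 to 0.26, adjusted p = 1) where GFP was, by the same test. The second ran from -1.08 without GFP Dox replicate 2 to -0.08 without GFP Dox replicate 1. Their difference was 0.96 (standard error 0.51), and was 0.54 without GFP Dox replicate 1 and 1.54 without GFP Dox replicate 2.

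SPRED1 (chromosome 15, 38252836 to 38357249, plus strand), which recruits the RAS inactivator NF1 to the membrane, also lay lower in the SMARCB1 line, without passing the test. Its CPM values were 37.6 and 26.0 in SMARCB1 Dox, 38.3 and 19.2 in SMARCB1 DMSO, 39.5 and 44.1 in GFP Dox, and 41.9 and 40.6 in GFP DMSO. The lines did not overlap, but the highest SMARCB1 line value, 38.3, and the lowest GFP line value, 39.5, were close, and the SMARCB1 DMSO pair differed 2.0-fold. The log2 difference was -0.54 (standard error 0.32, adjusted p = 0.538) without Dox and -0.39 (standard error 0.32, adjusted p = 0.569) with Dox in edgeR's quasi-likelihood test. Dox in the SMARCB1 line gave 0.17 (standard error 0.32), which ran from -0.26 without SMARCB1 DMSO replicate 2 to 0.73 and so turned sign. Dox in the GFP line gave 0.02 (standard error 0.32, 95% interval -0.66 to 0.70, adjusted p = 1 in the same test).

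Counted over the group, 3 of the 7 tested genes (42.9%) had all 4 libraries of one line outside the range of the other, SPRY2 above and ETV5 and SPRED1 below, where 17.6% of all tested genes did (8.61% above and 8.95% below). SPRY2 had to differ, as said above. Taking 2 libraries against 2, SPRY2 and SPRY4 were higher and SPRED1 and ETV5 lower without overlap in the absence of Dox, an arrangement of 22% and 22.8% of all tested genes. With Dox KSR1, SPRY2 and SPRY4 were higher and SPRED1 and ETV5 lower without overlap, against 23.2% and 22.9% of all tested genes, or 46.1% in either direction. KSR1 is named here through the SMARCB1 Dox libraries that chose it, and SPRY2 had to differ in both comparisons. Neither is set against these shares. Taking all 4 libraries of each line, BRAF, DUSP6, SPRY4 and KSR1 overlapped between the lines. For BRAF the line difference was 0.21 without Dox (standard error 0.31, 95% interval -0.46 to 0.88) and -0.20 with Dox (standard error 0.32, 95% interval -0.87 to 0.48). For DUSP6 it was -0.14 without Dox (standard error 0.28, 95% interval -0.73 to 0.45) and -0.29 with Dox (standard error 0.28, 95% interval -0.89 to 0.32). For SPRY4 it was 0.29 (standard error 0.52) and 0.60 (standard error 0.58).

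Some relatives of these feedback genes also differed between the lines. SPRY1, a second Sprouty gene, ran from 41.1 to 54.1 CPM where SMARCB1 was the transgene and from 21.6 to 25.4 CPM where it was GFP. Its log2 difference was called both without Dox, at 0.95 (standard error 0.26, adjusted p = 0.0457), and with Dox, at 1.12 (standard error 0.26, adjusted p = 0.0173), in edgeR's quasi-likelihood test. The first call was lost with any 1 of the 4 libraries left out (adjusted p 0.0675 to 0.461) and the second without SMARCB1 Dox replicate 1 or replicate 2 (adjusted p 0.210 and 0.0563). SPRY3 was at 0 in all libraries. SPRED2 overlapped between the lines (21.4 to 36.1 against 31.6 to 37.3 CPM), and so did the ETS factors ETV1 (2.84 to 4.50 against 2.01 to 3.84 CPM) and ETV4 (31.2 to 57.0 against 47.0 to 54.9 CPM). The phosphatases DUSP5 (28.5 to 57.6 against 19.8 to 25.5 CPM) and DUSP16 (37.96 to 57.2 against 26.4 to 34.6 CPM) were higher in all 4 SMARCB1 line libraries, as were 8.61% of all tested genes. Neither was called in edgeR's quasi-likelihood test, while DESeq2 called DUSP5 with Dox. The phosphatases DUSP1 (9.19 to 17.3 against 10.4 to 12.4 CPM), DUSP2 (0.836 to 1.67 against 1.16 to 3.25 CPM) and DUSP7 (2.69 to 3.67 against 1.07 to 4.10 CPM) overlapped between the lines. These relatives were picked out after their values were seen.

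Of 96 other genes of the RAS to ERK pathway, 82 were tested. With Dox in the SMARCB1 line 0 of 82 were called by edgeR's quasi-likelihood test or DESeq2, with 2 at an unadjusted p under 0.05 in each. Over all tested genes edgeR called 2 higher and 0 lower and DESeq2 26 higher and 10 lower, with 552 and 553 at an unadjusted p under 0.05. The median log2 change of the 82 was 0.11, against -0.02 over all genes tested. Of the 82, 22 were higher and 6 lower without overlap, where 17.3% and 18.3% of all tested genes were. Named by size, and without passing the test, the 3 that lay highest were HRAS (1.19, standard error 0.61), a RAS protein, JUN (1.17, standard error 0.70), an AP-1 transcription factor, and CNKSR3 (0.83, standard error 0.80), a scaffold of the CNK family, all on the log2 scale. CNKSR3 had 3 to 39 counts per library and shares 1369 coding bases with another annotated gene. The 3 that lay lowest were LAMTOR3 (-0.76, standard error 0.47), a scaffold for MEK and ERK on late endosomes, IER2 (-0.76, standard error 0.39), an immediate early gene, and MYC (-0.44, standard error 0.22).

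With Dox in the GFP line 0 of the 82 were called by either tool, with 1 at an unadjusted p under 0.05 in each. Both tools called 0 of all tested genes, with 240 (edgeR) and 251 (DESeq2) at an unadjusted p under 0.05. The median log2 change of the 82 was 0.00 against 0.02 over all genes tested. HBEGF, a ligand of the EGF receptor, was named after its value was seen. It was at 66.8 CPM in GFP Dox replicate 1, the library that stood apart, and at 18.2 CPM in replicate 2. In GFP DMSO it was at 27.6 and 19.2 CPM.

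Between the lines without Dox, 2 of the 82 pathway genes were called higher and 4 lower in edgeR's quasi-likelihood test, and with Dox 3 and 4. These are 7.32% and 8.54% of the list, near the 5.29% and 6.55% of all tested genes. Of the 82, 15.9% had the 4 libraries of one line outside the range of the other, also near the 17.6% of all tested genes. Both counts moved when 1 library was left out, as did the counts over all tested genes. Such a fit leaves 1 library in a group, so nothing is read from its counts. The largest difference was in SPHK1, a lipid kinase transcribed downstream of ERK, at 8.02 to 15.4 CPM in the SMARCB1 line against 86.8 to 149 CPM in the other. Its log2 difference was -3.52 without Dox (standard error 0.27, adjusted p = 1.15e-06) and -3.20 with Dox (standard error 0.26, adjusted p = 2.36e-06), and the call held with each library left out. PHLDA1, another gene induced by ERK, was higher at 204 to 222 against 84.4 to 102 CPM. It differed by 1.33 (standard error 0.22, adjusted p = 0.00151) without Dox and 1.12 (standard error 0.22, adjusted p = 0.00544) with Dox, calls lost without GFP DMSO replicate 2 (adjusted p = 0.0558) and without SMARCB1 Dox replicate 1 (adjusted p = 0.0885) by the same test.

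The adaptor GAB1 and the ERK-activated kinase RPS6KA1 were lower in the SMARCB1 line in both comparisons. GAB1 was at 16.1 to 18.9 against 35.6 to 56.4 CPM and RPS6KA1 at 71.4 to 102 against 172 to 222 CPM, with no overlap. The log2 difference of GAB1 was -1.07 without Dox (adjusted p = 0.0376) and -1.49 with Dox (adjusted p = 0.00423), and that of RPS6KA1 was -1.21 (adjusted p = 0.00926) and -1.18 (adjusted p = 0.0109), in edgeR's quasi-likelihood test. The GAB1 call without Dox was lost with any 1 of its 4 libraries left out (adjusted p 0.118 to 0.270), and the RPS6KA1 call without SMARCB1 DMSO replicate 2, GFP DMSO replicate 1 or GFP DMSO replicate 2 (adjusted p 0.114, 0.0555 and 0.112). With Dox both were lost without SMARCB1 Dox replicate 1 (adjusted p = 0.0775 for GAB1 and 0.232 for RPS6KA1).

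FOS, an immediate early AP-1 gene, was lower without Dox, at 0.935 and 2.50 CPM in SMARCB1 DMSO against 10.8 and 10.4 in GFP DMSO. Its log2 difference there was -2.72 (standard error 0.52, adjusted p = 0.00493 in edgeR's quasi-likelihood test), with an adjusted p of 0.0874 without SMARCB1 DMSO replicate 2. With Dox it was -1.45 (adjusted p = 0.116) in the same test. RRAS2, a RAS-related GTPase, was called higher with Dox (1.08, standard error 0.28, adjusted p = 0.0328), and RPS6KA4, a kinase activated by ERK and p38, lower (-0.80, standard error 0.22, adjusted p = 0.0465), in edgeR's quasi-likelihood test. The RRAS2 call was lost without either SMARCB1 Dox library or without GFP Dox replicate 1 (adjusted p 0.112 to 0.235), and the RPS6KA4 call without either SMARCB1 Dox library or without GFP Dox replicate 2 (adjusted p 0.0787 to 0.312).

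**Figure D4:**
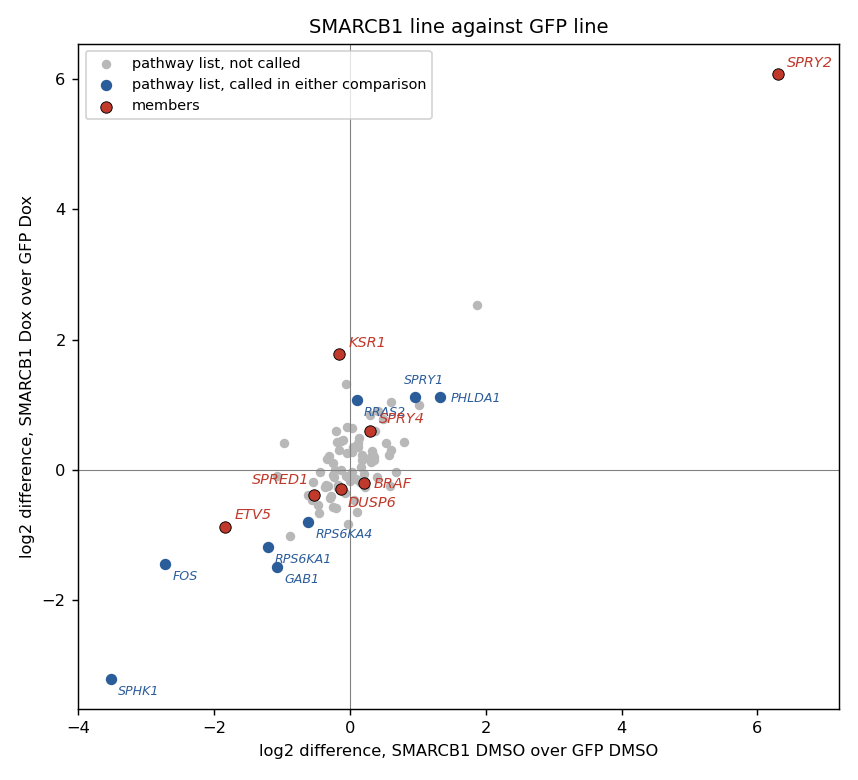
Log2 difference between the SMARCB1 line and the GFP line without Dox (horizontal axis) and with Dox (vertical axis), the 2 comparisons sharing no library; red points are the 7 tested genes of the group, blue points pathway genes called in either comparison and grey points the other pathway genes. SPRY2 is at 6.30 and 6.07, ETV5 at -1.83 and -0.87, SPHK1 at -3.52 and -3.20, and KSR1 at -0.16 and 1.78.

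The genes whose log2 CPM ran most like that of KSR1 over the 8 libraries, among 11096 others, were SMARCB1 (Pearson's r = 0.988), FLT1 (0.974), AXL (0.972), DOP1B (0.965) and DTX3L (0.965). These r values are a description over 8 points that share libraries and depth, and in each of these genes the 2 SMARCB1 Dox libraries lay above the 6 others. AXL, a receptor tyrosine kinase, was at 94.9 and 91.7 CPM in SMARCB1 Dox and at 34.2 to 40.2 CPM in the 6 others. FLT1, a receptor for VEGF, was at 1.25 and 1.43 CPM against 0 to 0.0779 CPM, from 15 and 9 counts in SMARCB1 Dox and 0 or 1 elsewhere. It moved from rank 2 to rank 5 when 0.5 in place of 2 counts was added before the log. SMARCB1 and FLT1 passed the filter through the SMARCB1 Dox libraries only, so nothing is read from their r. DOP1B was at 46.7 and 51.8 CPM against 21.1 to 25.2 CPM, and DTX3L, a ubiquitin ligase, at 85.6 and 75.1 CPM against 44.5 to 54.5 CPM.

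The genes that ran most against KSR1 were MCM9 (r = -0.953), a helicase of DNA repair, LRRC23 (-0.951) and KBTBD7 (-0.949). KBTBD7 was at 9.62 and 10.6 CPM in SMARCB1 Dox and 20.3 to 32.3 CPM elsewhere. Within the group itself r with KSR1 was 0.47 for SPRY2, -0.06 for BRAF, -0.17 for SPRED1, -0.21 for SPRY4 and ETV5, and -0.67 for DUSP6, again over 8 libraries and as a description.

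The genes also differ in the make-up of their coding sequences. KSR1 has 2784 coding bases in its canonical transcript, at percentile 82.4 of tested genes, and 60.9% GC, at percentile 80.1, against medians of 1440 bases and 52.0%. KSR2 is alike, with 2850 bases and 58.0% GC. BRAF has 2298 bases and 46.2% GC, and SPRED1 is the lowest in GC at 43.3%.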

How the data were processed

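The authors aligned footprint reads to hg38 with STAR and counted them over coding sequences with HTSeq in its strict intersection mode on GENCODE 42. Reads aligning to several places were not counted, which lowers genes with near-identical copies. The deposited files hold these whole-number counts per gene. Handling of strand, adapters and duplicates is not given in the sources used here. The 5 lines per file for reads without a gene were left out, 36.6% to 45.9% of uniquely aligned reads being in no feature and 1.29% to 1.74% ambiguous.

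Counts of all 8 libraries were fitted together in edgeR 4.0.16 (R 4.3.3) with TMM scaling, filterByExpr by group and the quasi-likelihood test, with Benjamini-Hochberg adjustment over all 11097 tested genes, and a gene was called at an adjusted p below 0.05. DESeq2 1.42.0 was an alternative. The authors' matched RNA-seq was not used here. Gene positions and coding lengths came from GENCODE 44, in which 293 of 20719 IDs had no match. Intervals are at 95%. p-values measure only the spread between the 2 libraries of a group, estimated over the 4 groups together. Nothing says how separate the cultures were. With 1 library left out, its group holds 1 library and the spread comes from the other groups. Values and calls from such fits are therefore a description. Steps were tested on simulated data. Members and gene lists were chosen with earlier results of these data known. Named were the members, RAF, MEK and ERK kinases (some are not reported here), pathway genes called in a comparison (at most 4 in each direction), the 3 highest and 3 lowest non-overlapping pathway genes in the SMARCB1 line, and the 5 genes most and 3 least like KSR1.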

Additional observations from a re-analysis of the deposited data

Results flagged for a closer look

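RRAS2, a RAS-related GTPase, was singled out because both of its Dox libraries lay above the DMSO libraries in one line and below them in the other. Taken singly, 17.3% of all tested genes lay higher in this way in the SMARCB1 line, and 13.2% lower in the GFP line. How many genes had both orders was not counted, so the pattern is not known to be unusual. It was at 79.9 and 71.8 CPM in SMARCB1 Dox against 57.9 and 62.5 CPM in SMARCB1 DMSO, and at 25.3 and 46.4 CPM in GFP Dox against 59.5 and 53.0 CPM in GFP DMSO. The difference between the Dox effects was 0.98 on the log2 scale (standard error 0.39) and did not pass edgeR's quasi-likelihood test (adjusted p = 0.981). The lowest value is in GFP Dox replicate 1, the library that stood apart, and the difference was 0.61 without it. Without GFP Dox replicate 2 it was 1.49 (adjusted p = 0.0606 in the same test).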

How the results depend on the processing

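In SMARCB1 Dox against SMARCB1 DMSO, 0 members were called, against 1 with no filter on low counts, with the replicate block, in DESeq2 and with only the groups compared. That 1 is KSR1, on the contrast by which the group was chosen, and nothing is read from it. Over all genes these 4 settings called 38, 9, 26 and 5 higher and 8, 4, 10 and 0 lower, against 2 and 0 in the reported fit. The replicate block changed no other count of members, and the replicate numbers share no stated batch (correlations of same-numbered deviations 0.0454 to 0.280). With at least 10 counts in every library, which drops SPRY2, each line comparison called 1 member in place of 2. Of all 9424 genes left, that setting called 158 higher and 146 lower without Dox and 208 and 197 with Dox. In the reported fit these were 296 and 291 without Dox and 367 and 360 with Dox, of 11097. Leaving out 1 library moved the member counts as well, and nothing is read from those. SPRY2, and KSR1 with Dox, are in the member counts as a description. The settings for the pathway list and the cascade kinases were added after the data had been seen. Of the pathway list, DESeq2 called 11 between the lines with Dox against 7 in the reported fit. Over all tested genes it called 477 higher and 494 lower there, against 367 and 360, so the count rose over the whole table too. Leaving out 1 library also moved the counts of the list, and nothing is read from those. Of 465 log2 values for members under other settings, 31 turned sign, over 16 of 35 differences, none of which was called. In GFP Dox against GFP DMSO they turned with library size alone for SPRY2 (-0.045), KSR1 (-0.009) and SPRED1 (-0.060), and for SPRED1 with no filter (-0.008). Leaving out 1 library there gave -2.818 to 2.747 for SPRY2, -0.116 to 0.284 for KSR1, -0.053 to 0.505 for BRAF and -0.065 to 0.094 for SPRED1. Between the lines without Dox it gave -0.396 to 0.072 for DUSP6 and -0.279 to 0.591 for BRAF, and with Dox -0.447 to 0.110 for BRAF. It also turned KSR1 between the lines without Dox (-0.345 to 0.052), and for Dox in the SMARCB1 line BRAF (-0.533 to 0.337), SPRED1 (-0.263 to 0.734) and SPRY2 (-0.636 to 0.358). The difference between the Dox effects turned for BRAF, DUSP6, SPRED1, SPRY2 and SPRY4, and for DUSP6 also with library size alone (0.035). The cause was not tested. Library size alone moved the median log2 change of all genes from -0.02 to 0.09 in the SMARCB1 line, from -0.03 to 0.16 for the difference between the Dox effects, and from -0.01 to 0.11 for the lines with Dox. Of all values for members under other settings, 430 kept direction and side of the threshold or stayed within the replicate spread. Another 20 without a test moved further, and 13 with a test turned sign. ETV5 changed side of the threshold both without Dox and with Dox, each time in a fit that left 1 library in a group. DUSP4 and KSR2, at or near 0 counts, were not tested.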
